A study of Mus musculus with 2 samples.

Results

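Basophils are the least frequent granulocytes of mouse bone marrow, and 113 of the 19433 barcodes kept in 2 single-cell libraries met a rule built on their protease transcripts. A barcode was taken as a basophil when the genes Mcpt8 and Prss34 together gave at least 10 UMIs (unique molecular identifiers, each marking 1 captured transcript) and the neutrophil genes S100a8, S100a9, Camp, Ngp and Ltf held under 5% of its UMIs. Kept barcodes had at least 500 UMIs, at most 20% of UMIs from mitochondrial genes and under 20% from the hemoglobin genes Hbb-bt, Hbb-bs, Hba-a1 and Hba-a2. The rule used the counts themselves, so the high Mcpt8 and Prss34 values of these cells are a description of how they were chosen. Cpa3, Ms4a2 and Fcer1a, which the rule did not use, gave at least 1 UMI in 76 of 78 control and 33 of 35 DKO cells, and the cells are called basophils below on these markers. The 4 cells without any of them are described separately below. They met the rule, so they stay in every count, sum and ratio unless a value is said to leave them out. Of 54 genes of the fixed lists that differed by 1.5-fold or more between the libraries, 49 still did without these 4 cells. The other 5 (Cd63, Fcer1g, Ccr2, Cd24a and Cd34) are given both ways below. The 54 were picked with all cells kept, and most cells are the same in both counts. Over all genes at the minimum level used for lists, 1366 of 6684 (20.4%) differed by as much.

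Total femoral bone marrow of mice aged 2 months, with no sort named, gave 1 library for each genotype, and the number of animals behind a library is not given in the sources used here. The control, labelled WT, was a littermate with both Ddx41 alleles floxed (Ddx41 fl/fl), no VavCre and wild-type cGas. The DKO, or double knockout, carried VavCre on Ddx41 fl/fl together with a cGas-/- background. Ddx41 encodes a DEAD-box helicase, and cGas encodes the sensor of cytosolic DNA that feeds the STING pathway. VavCre deletes floxed alleles across blood cells and is also active in endothelium and oocytes, whereas the cGas allele is not limited to blood cells. The 2 genotypes therefore differ in 2 genes at once, and the effects of the 2 deletions cannot be told apart. With 1 library per genotype there is no replicate check, and no p-value is given between them. Intervals below are exact (Clopper-Pearson for shares, Poisson for levels and conditional binomial for ratios), cover 95%, and contain counting error only. PCR copies were collapsed by UMI.

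Basophils arise in the marrow from granulocyte-monocyte progenitors under interleukin-3 and Gata2, and leave it as short-lived circulating cells. They carry the high-affinity IgE receptor, built from an alpha chain (Fcer1a) that holds IgE, a beta chain (Ms4a2) and a gamma chain (Fcer1g) that signal through Lyn and Syk, and on cross-linking they release histamine, leukotrienes and interleukin-4. Mcpt8 and Prss34 encode serine proteases of the basophil granule in mice, and Cpa3, a carboxypeptidase, is shared with mast cells.

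The stretches in front of genes that mark these cells are shown because Gata2 was one of the 15 genes with the highest ratio of basophil to other barcodes. Each is the 120 bases before the RefSeq start site in GRCm38.p6, 5′ to 3′ on the gene's strand, and capitals mark AGATAA or its reverse complement TTATCT, letters that contain the core read by GATA factors.
Prss34, chr17:25298274-25298393, plus strand: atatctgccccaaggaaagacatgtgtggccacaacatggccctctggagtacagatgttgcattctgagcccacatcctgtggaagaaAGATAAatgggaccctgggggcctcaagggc
Cpa3, chr3:20242182-20242301, minus strand: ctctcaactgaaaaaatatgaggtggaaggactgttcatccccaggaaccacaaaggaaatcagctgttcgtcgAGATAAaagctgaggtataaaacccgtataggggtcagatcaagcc
Ms4a2, chr19:11623720-11623839, minus strand: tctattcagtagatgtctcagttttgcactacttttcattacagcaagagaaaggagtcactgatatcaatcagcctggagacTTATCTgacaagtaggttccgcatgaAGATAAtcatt
Cd200r3, chr16:44943558-44943677, plus strand: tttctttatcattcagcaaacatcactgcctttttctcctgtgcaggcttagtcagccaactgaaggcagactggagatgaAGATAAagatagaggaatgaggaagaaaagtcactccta
The match began 31 bases before the start in Prss34, 46 in Cpa3 and 39 in Cd200r3, and Ms4a2 had matches 37 and 11 bases before it and another at 224. In the window from 250 bases before to 50 bases after the start, Mcpt8, at chr14:56082166-56085273 on the minus strand, had no match. Over all such windows 3672 of 32851 (11.2%) held at least 1 of the 2 strings, searched so that both strands were read. Counted by gene, 3432 of 27025 genes with a window did (12.7%), and so did 5 of the 12 leading genes with a window. The letters were chosen after the gene values were known, and a match is a description of the sequence and shows no binding.

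The control matrix listed 1518290 barcodes, empty droplets included, with 135693452 UMIs in all, and the DKO matrix held 14142 called barcodes with 117725934 UMIs. After the limits on UMIs, mitochondrial and hemoglobin transcripts, 11583 control and 7850 DKO barcodes were left. The 2 libraries shared 27 kept barcode sequences, and none of them was a basophil. In control barcodes with at most 100 UMIs, which hold free RNA, Mcpt8 stood at 51.6 CPM (counts per 1000000 UMIs), against 10216 CPM in the control basophils. The gene was thus present in the free RNA of that library.

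Basophils were 78 of 11583 control barcodes, 0.673% (0.533 to 0.840), and 35 of 7850 DKO barcodes, 0.446% (0.311 to 0.620). The 2 intervals overlap. The control sum rested on 803504 UMIs and the DKO sum on 659883. The cells of the DKO library were deeper, with lowest, median and highest values of 721, 6164.5 and 46204 UMIs per control cell and 2542, 16461 and 60460 UMIs per DKO cell. Barcodes outside the rule had a median of 3528 UMIs in control cells and 4231 in the DKO marrow, so the gap in depth was wider among the basophils. Only 2 of 35 DKO basophils but 27 of 78 control basophils had under 5000 UMIs.

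The protease signal was far from continuous across the marrow. Mcpt8 and Prss34 together were at 0 UMIs in 11155 control and 7656 DKO barcodes, and at 1 to 4 UMIs in a further 344 and 152. Only 4 control and 7 DKO barcodes fell at 5 to 9 UMIs, just outside the rule, and 3 and 6 of these had a UMI of Cpa3, Ms4a2 or Fcer1a. Just inside it, at 10 to 14 UMIs, were 9 control and 4 DKO cells, of which 7 and 3 had such a UMI. The other limits removed few cells. Of 85 control and 39 DKO barcodes with at least 10 UMIs of the proteases, 2 control barcodes had under 500 UMIs, 3 and 4 had at least 20% hemoglobin, and 2 control barcodes had at least 5% neutrophil transcripts. The basophils held 87.2% of all Mcpt8 and Prss34 UMIs of the control and 83.7% of those of the DKO library. The first percentage is over every listed barcode, empty droplets included, and the second over called barcodes only, so they cannot be compared. For the same reason no DKO barcode could be removed for having under 500 UMIs.

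Mcpt8 was present in every cell, with lowest, median and highest values of 3, 47 and 513 UMIs per control cell and 6, 168 and 658 UMIs per DKO cell. Prss34 had lowest, median and highest values of 0, 59.5 and 1142 UMIs per control cell and 0, 232 and 742 UMIs per DKO cell. A transcript gives 1 UMI near its 3′ end whatever its length. Among the cells with both, the ratio of Prss34 to Mcpt8 UMIs had a median of 1.57 in control cells and 1.27 in DKO cells, and Prss34 exceeded Mcpt8 in 56 of 78 and 23 of 35 cells. Prss34 was at 0 in 4 control cells, with 11 to 48 Mcpt8 UMIs, and in 3 DKO cells, with 10 to 136. As shares of a cell's UMIs the 2 proteases moved together, with a Spearman's rho of 0.86 over 78 control cells and 0.89 over 35 DKO cells, over cells of 1 library each. The rank correlation of the Mcpt8 share with total UMIs was -0.0071 over 78 control cells and -0.0067 over 35 DKO cells. Its level in control cells was nevertheless highest at middle depth, as described with the depth groups below. The rule asks for 10 UMIs of the 2 genes whatever the depth, so a shallow cell enters only with a high share. These correlations use the values of the rule and are shaped by it, so they are a description.

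**Figure D1:**
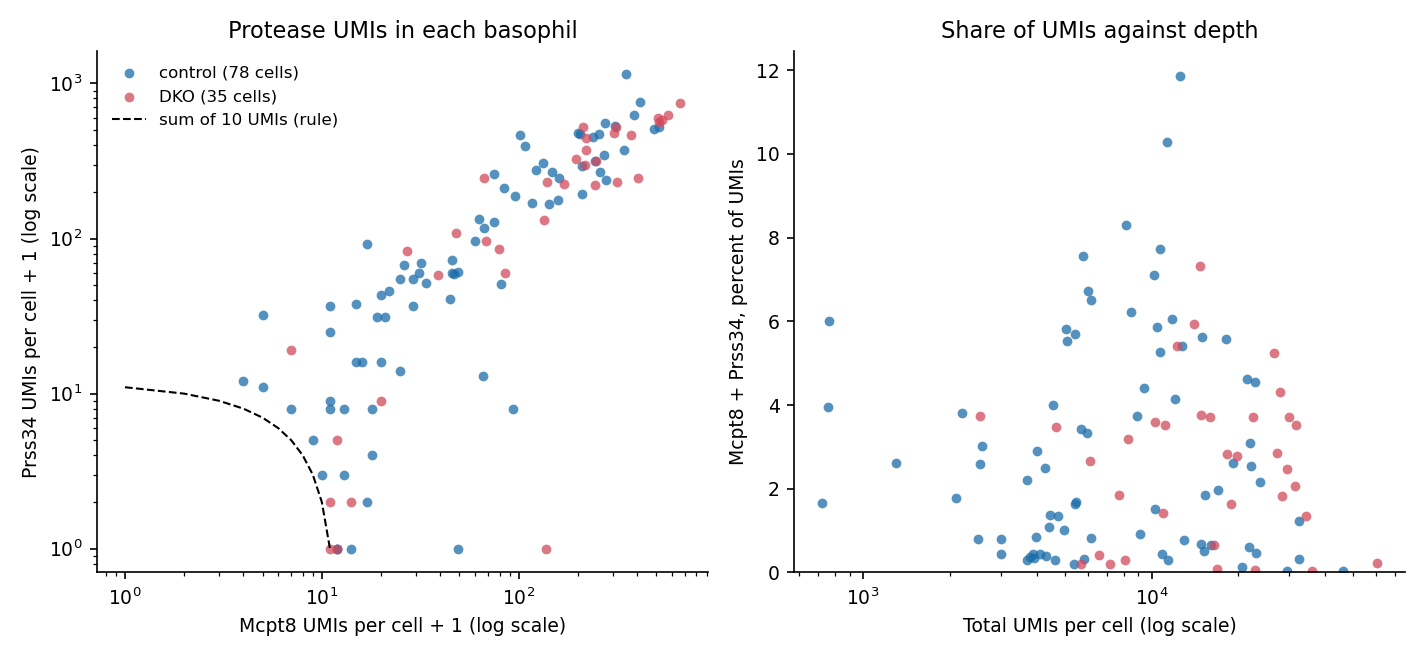
Each point is 1 basophil of the control (blue, 78 cells) or DKO (red, 35 cells) library. On the left, Prss34 UMIs plus 1 are plotted against Mcpt8 UMIs plus 1 on log axes, with the rule's limit of 10 UMIs dashed, and most cells with many Mcpt8 UMIs also have many Prss34 UMIs, up to 1142, while 7 cells have no Prss34. On the right, the share of a cell's UMIs from both genes (percent) is plotted against its total UMIs (log axis). The share reaches 11.9% in control cells and 7.32% in DKO cells, with the highest shares at middle depth. The rule's 10 UMIs set a lowest share that falls with depth.

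Genes outside the rule marked the same cells. Cpa3 gave 1912 UMIs in control cells and 1667 in DKO cells, 2380 and 2526 CPM, against 9.04 and 8.73 CPM in all other kept barcodes of the 2 libraries. Ms4a2 gave 957 and 944 CPM against 3.64 and 3.21 CPM, and Fcer1a 1200 and 1041 CPM against 2.04 and 2.12 CPM. After Prss34 and Mcpt8, the leading genes by the lower of the 2 libraries' ratios were Fcer1a, Cpa3, Ms4a2, Rnase12, Cd200r3, Il6, Csrp3, Cyp11a1, Cdh1, Gpr34, Gata2, Ccl3 and Ccl4. That lower ratio ran from 488 for Fcer1a to 36.4 for Ccl4. Because the cells were chosen on the same counts, these ratios are a description. The list held more than granule and receptor genes. Cyp11a1, the enzyme that cuts the cholesterol side chain in steroid synthesis, stood at 289 and 288 CPM, Cdh1, which encodes E-cadherin, at 224 and 306 CPM, and Csrp3, a LIM-domain protein known from muscle, at 457 and 352 CPM.

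The classes most like basophils had far lower levels of these transcripts. In barcodes with at least 2% of UMIs from Elane, Mpo, Prtn3, Ctsg and Ms4a3, here called granulocyte-monocyte progenitor barcodes by rule (223 control, 87 DKO), Cpa3 was at 11.1 and 9.97 CPM and Fcer1a was listed at 0.197 and 0 CPM. In barcodes with at least 10 UMIs of Ly86, Ccr2, Csf1r, F13a1 and Ms4a6c (monocyte barcodes by rule, 1461 and 751) Ms4a2 was at 1.21 and 0.0836 CPM. Other genes were shared between classes. Fcer1g, the gamma chain that other Fc receptors also use, stood at 1629 and 1067 CPM in basophils and at 1637 and 1305 CPM in the monocyte barcodes, and Srgn, which encodes the granule proteoglycan core serglycin, at 3126 and 2817 CPM in basophils and 3677 and 3292 CPM in the progenitor barcodes.

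**Figure D2:**
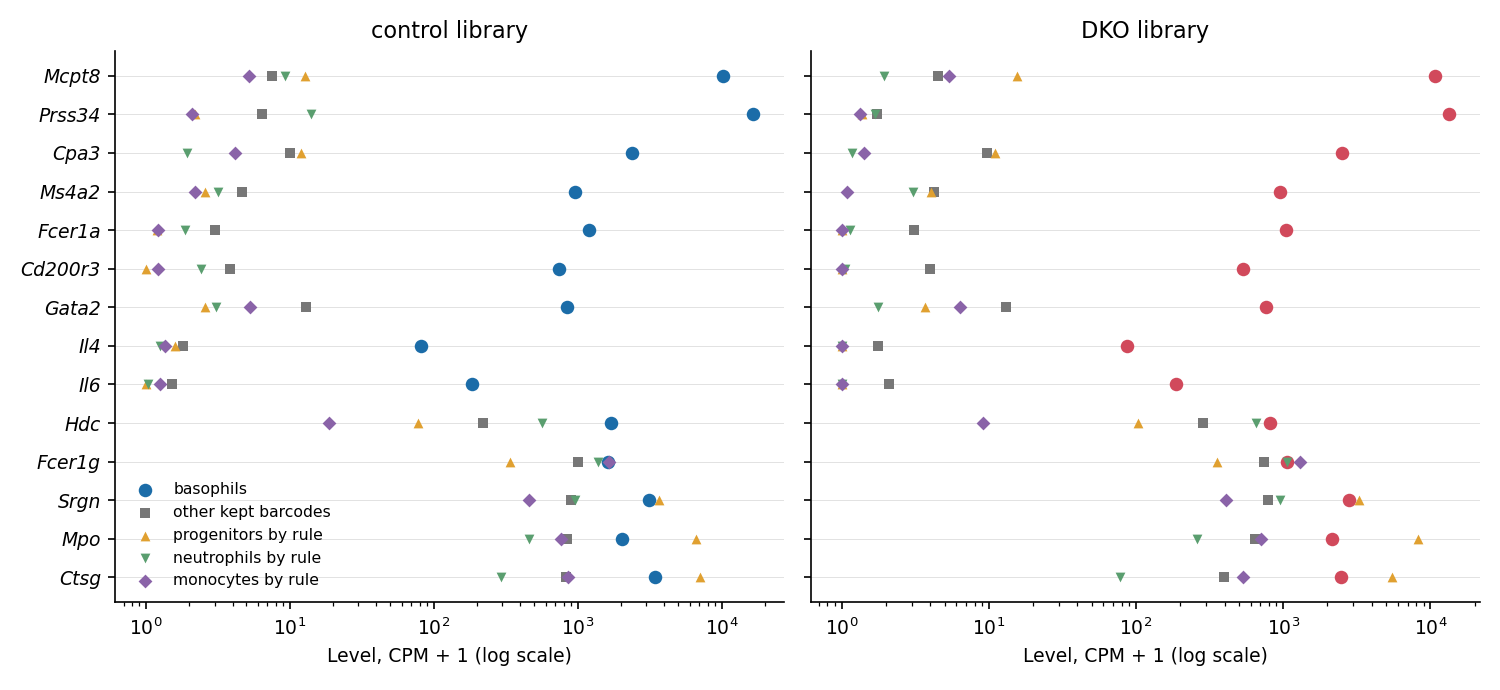
Levels (CPM plus 1, log axis) of 14 genes in the control (left) and DKO (right) library, summed over basophils (large circles), all other kept barcodes (squares) and the progenitor, neutrophil and monocyte barcodes chosen by rule (triangles up, triangles down and diamonds). From Mcpt8 to Il6 the basophils lie far to the right of every other class in both libraries, whereas Fcer1g, Srgn, Mpo and Ctsg lie within or beside the other classes.

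Genes of mast cells, which share Cpa3 and the IgE receptor, were nearly absent. Of 10 mast cell genes (Cma1, Cma2, Mcpt1, Mcpt2, Mcpt4, Mcpt9, Mrgprb2, Tpsb2, Tpsab1 and Tpsg1), 9 were at 0 UMIs in the basophils of both libraries and Tpsg1 gave 1 UMI in 1 control cell. Kit, the stem cell factor receptor that mature mast cells keep, gave 36 UMIs in control cells and 39 in DKO cells, in 17 of 78 control and 10 of 35 DKO cells. Its log2 ratio of DKO over control was 0.40 (-0.29 to 1.09) over all basophils and -0.67 without the 4 cells that lacked Cpa3, Ms4a2 and Fcer1a. Eosinophil granule transcripts were found in few cells. Prg2, the eosinophil major basic protein, gave 858 UMIs in control cells and 41 in DKO cells, but in only 3 control cells and 1 DKO cell, with 477 and 41 UMIs in the highest, and each of the 4 cells also had Cpa3, Ms4a2 and Fcer1a. Epx, the eosinophil peroxidase, gave 45 and 4 UMIs in 2 cells of each library.

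Transcripts of other classes were also present in some cells. With markers detected in under 25% of the basophils of both libraries, 14 control and 12 DKO cells had at least 3 UMIs of another class. None of the 5 progenitor genes met that limit on detection, so progenitor transcripts could not count as another class. B cell markers reached that level in 2 control and 5 DKO cells, with at most 34 and 325 UMIs in a cell. Neutrophil markers did so in 2 control and 1 DKO cell (at most 16 and 147 UMIs), monocyte markers in 4 and 2 cells (at most 91 and 35 UMIs) and erythroid markers in 4 and 2. T or NK cell markers reached it in 1 control cell and were at 0 in every DKO cell. No doublet caller was run, and whether these barcodes held 2 cells was not tested. The 4 cells without Cpa3, Ms4a2 and Fcer1a were among the deepest, with 29528 and 46204 UMIs in control cells and 36049 and 60460 in the DKO marrow. The 2 control cells had 149 to 323 UMIs of Elane, neutrophil elastase, and the DKO cells 0 to 225, against at most 82 and 40 in any other basophil.

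The targeted genes were low in the cells of both libraries. Ddx41 gave 36 UMIs in control cells and 14 in DKO cells, 44.8 CPM (31.4 to 62.0) and 21.2 CPM (11.6 to 35.6), in 21 of 78 control and 10 of 35 DKO cells. The log2 ratio of DKO over control CPM, with 1 count added to each sum here and below, was -1.02 (95% counting interval -2.08 to -0.15). All other kept barcodes stood at 30.4 and 14.1 CPM. Cgas gave 24 UMIs in control cells and 16 in DKO cells, in 19 of 78 control and 11 of 35 DKO cells, with a log2 ratio of -0.27 (95% counting interval -1.31 to 0.67), so that a difference was not detectable at this depth. In cells of 5000 to 20000 UMIs alone the Cgas ratio was -2.47. These are counts near the 3′ end of transcripts, and the sources used here do not say which exons were removed, so transcripts of a deleted allele may still be counted and the values do not check the deletions.

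Between the libraries, 123 of 1790 genes with a mean of at least 100 CPM were higher in the DKO basophils by 1.5-fold or more (6.87% of genes tested) and 78 were lower (4.36%). At a mean of at least 20 CPM, the minimum used for gene lists, 849 of 6684 were higher (12.7%) and 517 lower (7.73%), with a median log2 ratio of 0.06. In brackets below, the control level comes first and the log2 ratio is followed by its 95% counting interval. Of 11 granule genes, 10 had at least 20 CPM, of which 0 were higher and 2 lower by 1.5-fold, with a median log2 ratio of -0.27. Mcpt8 stood at 10216 CPM in control cells and 10776 CPM in DKO cells, a log2 ratio of 0.077 (95% counting interval 0.031 to 0.12). Prss34 was lower, at 16626 and 13469 CPM and -0.30 (-0.34 to -0.26), and Cpa3 was at 2380 and 2526 CPM and 0.086 (-0.0094 to 0.18). The rule used Mcpt8 and Prss34, so their values describe the cells chosen. The 2 genes past 1.5-fold were Cd63, a tetraspanin of granule membranes that reaches the surface on degranulation, with 2768 CPM in control cells and 1841 CPM in DKO cells and a log2 ratio of -0.59 (-0.69 to -0.49), and Lgals3, galectin-3, with 256 and 135 CPM and -0.92 (-1.30 to -0.56). Cd63 lay close to the limit, at -0.52 without the 4 cells lacking Cpa3, Ms4a2 and Fcer1a and at -0.34 without cells with markers of another class. Lgals3 stood at 1.04 in cells of 5000 to 20000 UMIs. Ctsg, the cathepsin G of azurophil granules, was at 3461 and 2466 CPM and -0.49 (-0.58 to -0.40). Gzmb, granzyme B, gave only 4 and 4 UMIs.

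The IgE receptor was expressed as a whole. Ms4a2 was found in 71 of 78 control and 33 of 35 DKO cells, with lowest, median and highest values of 0, 7 and 30 UMIs per control cell and 0, 18 and 46 UMIs per DKO cell, and its CPM differed by -0.019 (95% counting interval -0.17 to 0.13) on the log2 scale. Fcer1a stood at 1200 CPM in control cells and 1041 CPM in DKO cells, -0.20 (-0.35 to -0.062). The deeper DKO cells carried more Ms4a2 UMIs at their median, and the ranges of the groups overlapped. Fcer1g, in 78 of 78 control and 34 of 35 DKO cells, was lower in DKO cells at 1629 and 1067 CPM, -0.61 (-0.74 to -0.48), and it was lower in the other barcodes too (1008 and 736 CPM). Without the 4 cells it was at -0.50, short of 1.5-fold. Of 26 genes of receptor signalling, 23 had at least 20 CPM, with a median log2 ratio of 0.19. Of these, 3 were higher and 1 lower by 1.5-fold, against 12.7% and 7.73% of all genes tested. Lyn, the kinase that phosphorylates the receptor first, was at 223 and 174 CPM and Syk, the kinase it recruits, at 111 and 135 CPM. Higher were Gab2, the adaptor that carries the signal to PI3 kinase (366 and 597 CPM, log2 0.71, 0.48 to 0.93), Inpp5d, the inositol phosphatase SHIP1 that restrains it (147 and 244 CPM, log2 0.73, 0.38 to 1.09), and Itpr2, a calcium release channel (66.0 and 108 CPM). All 3 were higher in the other DKO barcodes as well, at 178 and 212 CPM for Gab2, 175 and 229 CPM for Inpp5d and 82.4 and 121 CPM for Itpr2, the control first. Lower was Lilrb4a, an inhibitory receptor (124 and 74.3 CPM, log2 -0.73, -1.27 to -0.24), which stood at 0.37 in cells of 5000 to 20000 UMIs. Inpp5d stood at 0.21 without cells with markers of another class.

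Receptors for growth factors and alarmins were present at moderate levels. Il3ra, the alpha chain for interleukin-3, gave 84 and 59 UMIs in 41 of 78 control and 26 of 35 DKO cells, 105 and 89.4 CPM, and its signalling chain Csf2rb 209 and 226 CPM. Il1rl1, the interleukin-33 receptor ST2, stood at 106 and 138 CPM against 8.20 and 16.0 CPM in the other barcodes, and Il18rap, a chain of the interleukin-18 receptor, at 253 and 218 CPM. Of 34 receptor genes, 24 had at least 20 CPM, with a median of 0.085. Of these, 4 were higher and 2 lower by 1.5-fold, against 12.7% and 7.73% of all genes tested. The 4 higher genes were Tgfbr1 (41.1 and 102 CPM, log2 1.28, 0.68 to 1.95), Cxcr4, the marrow retention receptor for CXCL12 (180.5 and 279 CPM, log2 0.63, 0.31 to 0.95), Il7r (32.4 and 66.7 CPM) and Il1rap (21.2 and 40.9 CPM). Tgfbr1 and Cxcr4 were also higher in the other DKO barcodes, at 46.0 and 79.8 CPM and 110.3 and 189 CPM. Lower were C5ar1, the C5a receptor (53.5 and 27.3 CPM), and Ccr2 (66.0 and 42.4 CPM, log2 -0.61, -1.35 to 0.05). In cells of 5000 to 20000 UMIs alone the median of the list was 0.78. C5ar1 and Ccr2 then stood at 0.80 and 1.70, and Ccr2 was at -0.32 without the 4 cells. Without cells with markers of another class Il7r stood at -0.011 and Ccr2 at 0.93. Hrh4, the histamine H4 receptor, gave 15 and 4 UMIs in the basophils. Ptgdr2, the prostaglandin D2 receptor of human basophils, was at 0 in both.

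Among enzymes of lipid and amine mediators, 1 gene passed 1.5-fold. Hdc, histidine decarboxylase, which makes histamine, had lowest, median and highest values of 0, 14 and 67 UMIs per control cell and 0, 12 and 41 UMIs per DKO cell. It was present in 73 of 78 control and 32 of 35 DKO cells. Summed, it stood at 1699 CPM in control cells and 817 CPM in DKO cells, with a log2 ratio of -1.05 (95% counting interval -1.20 to -0.91), whereas the other barcodes were at 219 and 282 CPM. The difference moved with depth and is taken up below. Slc18a2, the vesicular transporter that loads histamine into granules, was at 136 and 177 CPM and 0.39 (-0.0026 to 0.78). Of the leukotriene genes, Alox5 was at 312 and 411 CPM (log2 0.39, 0.14 to 0.65) and its activating protein Alox5ap at 911 and 644 CPM (log2 -0.50, -0.68 to -0.33), both short of 1.5-fold. Alox5ap was lower in deeper control cells, with 1888, 1022 and 499.8 CPM, and in cells of 5000 to 20000 UMIs alone its ratio was -0.13. Alox15 was at 83.4 and 57.6 CPM in basophils and at 0.265 and 0.613 CPM elsewhere. Ltc4s, Hpgds and Ptgs1 gave at most 6 UMIs in either library, and Ptgs2 and Tph1 gave 0. Of the 15 genes of the list, 10 had at least 20 CPM, and the median was 0.062. Of these, 0 were higher and 1 lower, against 12.7% and 7.73% of all genes tested.

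Cytokine transcripts were found without any stimulus named in the labels. Il4 gave 65 and 57 UMIs in 34 of 78 control and 25 of 35 DKO cells, 80.9 and 86.4 CPM against 0.823 and 0.762 CPM in the other barcodes, and Il6 184 and 185 CPM against 0.518 and 1.09 CPM. Their log2 ratios between the libraries were 0.098 (-0.44 to 0.63) and 0.0074 (-0.35 to 0.36). Csf1, the macrophage growth factor, stood at 205 and 294 CPM, and Hgf, hepatocyte growth factor, at 319.8 and 346 CPM. Il5, Il13, Csf2 and Areg were at 0 UMIs in both. Of 19 cytokine and chemokine genes, 10 had at least 20 CPM. Ccl3 had lowest, median and highest values of 0, 4 and 32 UMIs per control cell and 0, 3 and 30 UMIs per DKO cell, in 53 of 78 control and 23 of 35 DKO cells. Its sums were 580.0 and 285 CPM, a log2 ratio of -1.02 (95% counting interval -1.28 to -0.78). Ccl6 stood at 647 and 205 CPM (log2 -1.65, -1.95 to -1.39) in 36 of 78 control and 10 of 35 DKO cells, Ccl9 at 408 and 279 CPM (log2 -0.55, -0.82 to -0.29) and Ccl4 at 462 and 391 CPM (log2 -0.24, -0.47 to -0.0068). Ccl3, Ccl6 and Osm were the 3 genes lower by 1.5-fold and 0 were higher, against 7.73% and 12.7% of all genes tested. The median of the list was -0.12. In cells of 5000 to 20000 UMIs alone that median was 0.85, and Osm stood at 0.11. In the other barcodes Ccl6 had the opposite order, 179 and 328 CPM.

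Most transcription factors of the lineage differed by less than 1.5-fold. Gata2, found in 74 of 78 control and 34 of 35 DKO cells, stood at 836 and 762 CPM (log2 -0.13, -0.30 to 0.035) against 11.9 and 12.03 CPM in the other barcodes and 1.58 and 2.68 CPM in the progenitor barcodes. Runx1 stood at 2026 and 2563 CPM (log2 0.34, 0.24 to 0.44), and Ikzf2, the Ikaros family member Helios, stood at 723 and 633 CPM against 37.4 and 31.0 CPM elsewhere. Cebpa, required for granulocyte progenitors, was at 281 and 318 CPM. Mitf, the mast cell factor, gave 11 and 4 UMIs. Of 26 factors, 21 had at least 20 CPM, of which 2 were higher and 0 lower, against 12.7% and 7.73% of all genes tested. The median of the list was 0.24. The higher ones were Bach2, a B cell factor carried by few cells (5 of 78 control and 7 of 35 DKO cells, with 36.7% of the DKO UMIs in 1 cell), and Tal1 (48.5 and 83.3 CPM, log2 0.77, 0.16 to 1.41).

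The surface genes included receptors used to sort basophils. Cd200r3, an activating receptor used to identify mouse basophils, had lowest, median and highest values of 0, 6.5 and 27 UMIs per control cell and 0, 11 and 36 UMIs per DKO cell and stood at 736 and 533 CPM (log2 -0.46, -0.66 to -0.27) against 2.83 and 2.999 CPM elsewhere. Itga2, the integrin CD49b of the usual basophil gate, stood at 82.1 and 77.3 CPM (log2 -0.082, -0.64 to 0.46), and Itga2b, CD41, at 270.1 and 206 CPM. Of 21 surface genes, 20 had at least 20 CPM, with a median of -0.15. Of these, 4 were higher and 1 lower by 1.5-fold, against 12.7% and 7.73% of all genes tested. Higher were Cd34, a progenitor marker (39 and 66 UMIs in 16 of 78 control and 15 of 35 DKO cells, log2 1.03, 0.45 to 1.65), Ptprc, the pan-leukocyte CD45 (156 and 253 CPM), Itga4 (144 and 224 CPM) and Cd24a (114 and 173 CPM). Cd34 rested on the 4 cells without Cpa3, Ms4a2 and Fcer1a, without which it stood at 42.6 and 44.4 CPM, a log2 ratio of 0.07, and Cd24a was then at 0.52. The lower gene was Cd37, a tetraspanin (207 and 121 CPM, log2 -0.76, -1.17 to -0.38).

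**Figure D3:**
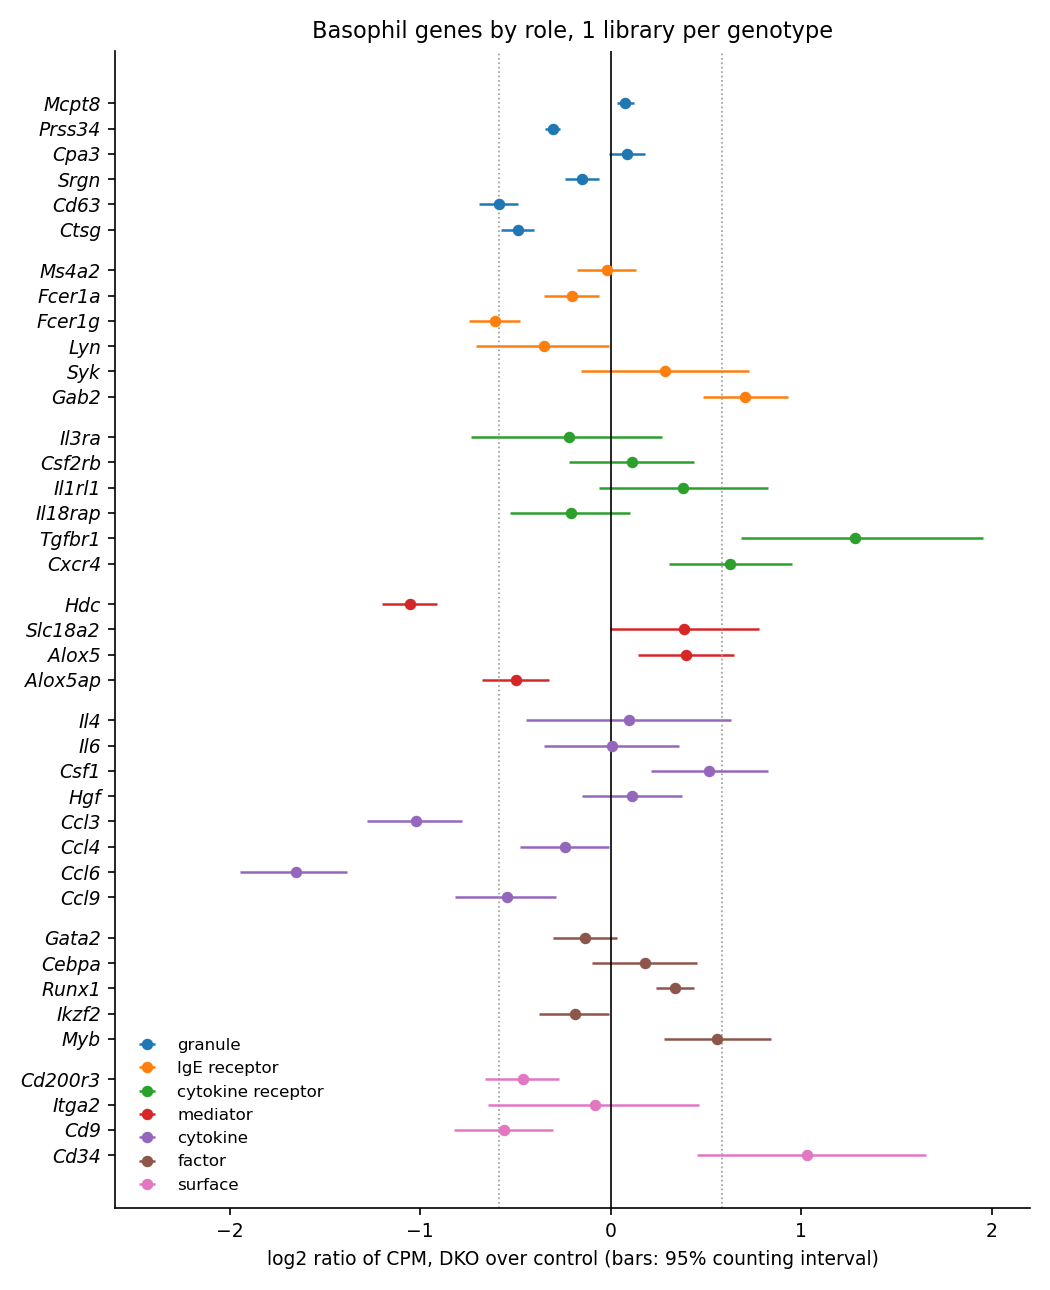
The log2 ratio of CPM, DKO over control, of 39 genes summed over the basophils, grouped by role, with bars for the 95% counting interval, the solid line at 0 and dotted lines at 1.5-fold. Mcpt8, Cpa3, Ms4a2, Il4, Il6 and Gata2 sit near 0, while Hdc, Ccl3 and Ccl6 lie to the left of the lower dotted line and Tgfbr1 to the right of the upper one. Cd34, also on the right, stands at 0.07 without the 4 cells that lack Cpa3, Ms4a2 and Fcer1a.

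Within each library the basophils were not uniform, and the variation followed depth. The cells were divided into those with under 5000 UMIs (27 control, 2 DKO), 5000 to 20000 (39 and 20) and over 20000 (12 and 13), a range of depths and not cell types. Because only 2 DKO cells were in the first group, DKO values are given for the other two groups. Cd200r3 stood at 1843, 896 and 226 CPM in control cells of rising depth and 979 and 277 CPM in the 2 deeper DKO groups. Ccl3 stood at 1787, 671 and 129 CPM in control cells and 656 and 68.5 CPM in the DKO groups, and Hdc at 4338, 1938 and 663 CPM in control cells and 1405 and 479.7 CPM in the DKO groups. All 3 were lower in the deepest group than in the middle one in both libraries, and the 2 shallow DKO cells had none of them. Mpo, the myeloperoxidase of granulocyte progenitors, ran the other way, with 236, 1741 and 2892 CPM in control cells and 1032 and 2822 CPM in the DKO groups. Both proteases were highest in the middle group of the control. Mcpt8 stood at 5788, 14577 and 6023 CPM in control cells and 11624 and 10176 CPM in the DKO groups and Prss34 at 8766, 25032 and 8352 CPM in control cells and 16167 and 11749 CPM in the DKO groups. Gata2 was at 1764, 976 and 402 CPM in control cells and 1180 and 507 CPM in the DKO groups. Elane, at 11.2, 249.76 and 1616 CPM in control cells and 49.2 and 661 CPM in the DKO groups, rested in the deepest group largely on cells without Cpa3, Ms4a2 and Fcer1a, and without the 4 such cells it stood there at 173 and 144 CPM.

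**Figure D4:**
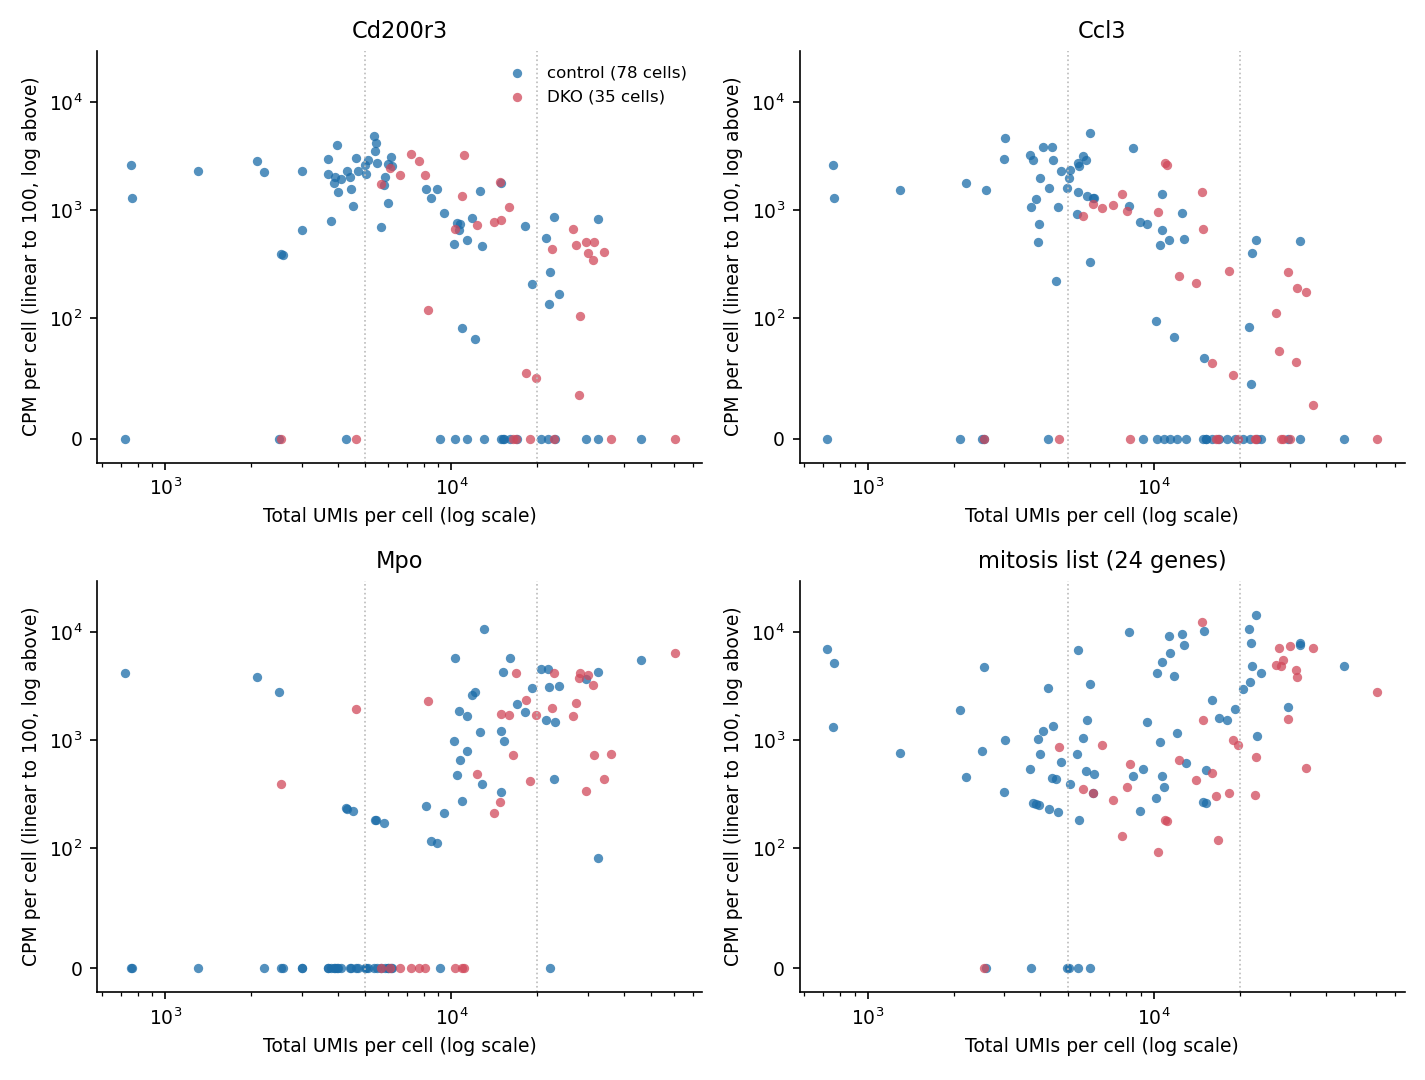
Each point is 1 basophil, with its total UMIs on the horizontal axis (log) and the level of Cd200r3, Ccl3, Mpo or the 24-gene mitosis list on the vertical axis (CPM per cell, linear to 100 and log above). Dotted lines mark 5000 and 20000 UMIs. Of the 27 control cells to the left of the first line most have Cd200r3 and Ccl3 and no Mpo, the 2 DKO cells there have Mpo but neither Cd200r3 nor Ccl3, and most cells to the right of the second line have Mpo.

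The differences in Hdc and the chemokines between the libraries varied with the cells compared. In cells of 5000 to 20000 UMIs, Ccl3 was at 671 CPM in control cells and 656 CPM in the DKO marrow, Ccl6 at 353 and 533 CPM, Cd200r3 at 896 and 979 CPM and Hdc at 1938 and 1405 CPM. In that group Ccl3 differed by less than over all cells, Ccl6 had the opposite order, and Hdc was lower in DKO cells by a smaller margin. Prss34, at 25032 and 16167 CPM, differed more there than over all cells, and in cells over 20000 UMIs it had the opposite order, 8352 and 11749 CPM. In cells with Ccl3 only, a division described below, Hdc stood at 4353 CPM in control cells and 1863 CPM in DKO cells. Ccl3 was at 1901 and 1132 CPM there and Ccl6 at 2483 and 1282 CPM, while Ccl4 had the opposite order, 1497 and 1773 CPM. In Mpo-only cells Hdc was at 617 and 565 CPM. In the cycling cells described below Hdc was at 1232 and 568 CPM, and in the rest at 2847 and 1322 CPM. Whether genotype, depth or the library set the smaller number of shallow cells in the DKO marrow was not tested.

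**Figure D5:**
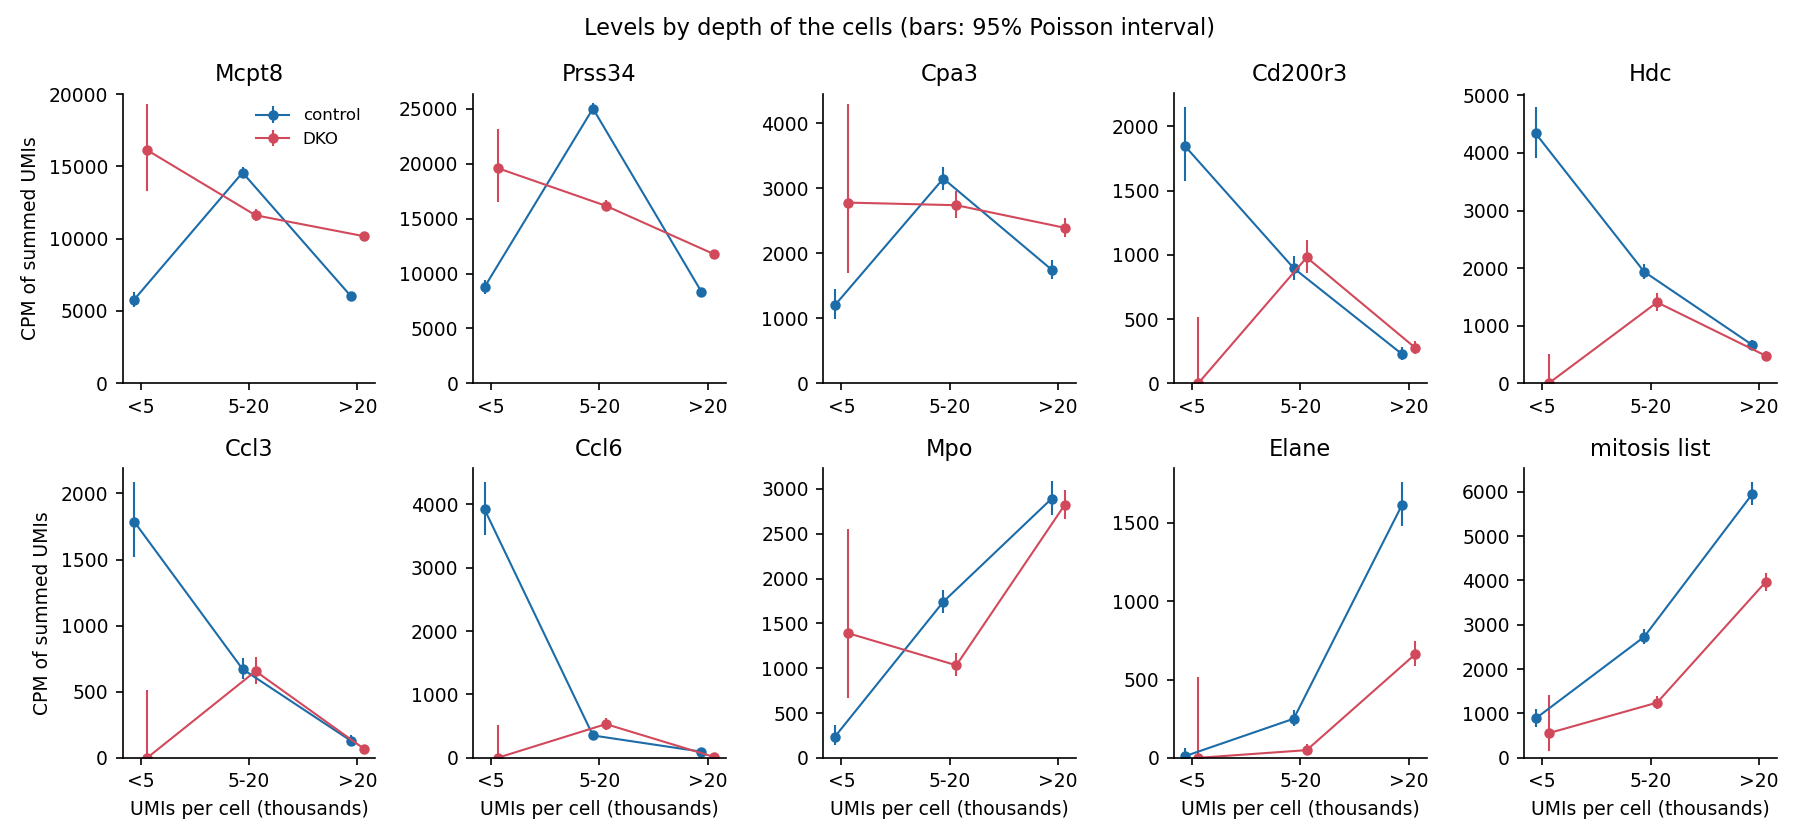
Levels of 9 genes and the summed mitosis list (CPM of summed UMIs, linear axes from 0) in basophils of under 5000, 5000 to 20000 and over 20000 UMIs, for the control (blue) and DKO (red) library, with bars for the 95% Poisson interval. Cd200r3, Hdc, Ccl3 and Ccl6 fall with depth in control cells and from the middle to the deepest group in the DKO marrow, and Mpo, Elane and the mitosis list run upward between these groups. Elane in the deepest groups rests largely on cells without Cpa3, Ms4a2 and Fcer1a. Without them its control level is lower there than in the middle group. The first DKO point rests on 2 cells.

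Ccl3 and Mpo rarely occurred together. With every cell reduced to 2000 UMIs at random (4 control cells were too shallow), 34 control cells had Ccl3 only, 26 Mpo only, 7 both and 7 neither, and in the DKO marrow the numbers were 9, 20, 2 and 4. The 2 genes were picked after their values were seen, so these counts are a description. Cd200r3 went with Ccl3, in 38 of 41 control and 9 of 11 DKO cells that had Ccl3, and was less frequent with Mpo, in 8 of 33 and 10 of 22. As shares of a cell's UMIs, Ccl3 and Mpo had a rho of -0.76 over 78 control cells and -0.80 over 35 DKO cells, and Cd200r3 and Ccl3 one of 0.74 over 78 control cells and 0.87 over 35 DKO cells. The Ccl3-only cells were shallower, with a median of 4855.5 UMIs in control cells and 7726 in the DKO marrow, against 16497 and 24745 for the Mpo-only cells.

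Many genes differed in the same direction between these cells in both libraries. Il4 stood at 245 CPM in Ccl3-only and 17.5 CPM in Mpo-only control cells, and 210.4 and 52.9 CPM in DKO cells. Il18rap was at 669 against 87.5 CPM in control cells and 701 against 97.3 CPM in DKO cells, Hgf at 792 against 133 CPM in control cells and 972 against 178 CPM in DKO cells and Csf1 at 475 against 107 CPM in control cells and 771 against 188 CPM in DKO cells. Cxcr2, a chemokine receptor of mature granulocytes, was at 164 against 15.3 CPM in control cells and 280.5 against 6.34 CPM in DKO cells, and Lilrb4a at 399 against 24.1 CPM in control cells and 361 against 12.7 CPM in DKO cells. The Mpo-only cells had the progenitor genes. The cells lacking Cpa3, Ms4a2 and Fcer1a were all Mpo-only, and values without them are not given here. In the control they gave 149 and 323 of the 611 Elane UMIs of the Mpo-only cells. In the DKO marrow they gave 0 and 225 of 281. Prtn3, proteinase 3, stood at 20.4 against 1533 CPM in control cells and 10.0 against 605 CPM in DKO cells, Ctsg at 950.4 against 4358 CPM in control cells and 611 against 2969 CPM in DKO cells and Myb, a factor of dividing progenitors, at 46.0 against 367 CPM in control cells and 100.2 against 421 CPM in DKO cells. Ms4a2, at 1170 against 824 CPM in control cells and 1222 against 856 CPM in DKO cells, differed little beside these. Mcpt8 did not keep 1 direction, with 10342 against 7458 CPM in control cells and 7903 against 10885 CPM in DKO cells, and neither did Prss34, with 17087 against 9461 CPM in control cells and 9496 against 13110 CPM in DKO cells.

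Many basophils carried transcripts of dividing cells. Of cells reduced to 2000 UMIs, 41 of 74 control cells had at least 2 UMIs of the 24 mitosis genes, 55.4% (43.4 to 67.0), and 16 of 35 DKO cells did, 45.7% (28.8 to 63.4). The intervals overlap. Neutrophil barcodes with more Retnlg than Ltf UMIs, the order in mature neutrophils, which do not divide, reached this level in 16.8% of the control and 10.8% of the DKO library when reduced alike, which gives the background of this measure. Phase was not called, and cycling below names the cells at this limit. Without the reduction, 79.5% and 91.4% of basophils passed. In these full counts Cks2 alone was found in 63 of 78 control and 31 of 35 DKO cells. After the reduction to 2000 UMIs, 26 control and 15 DKO cells had only 1 to 3 UMIs of the list, near the limit. At the other end, 18 of the reduced control cells and 9 of the reduced DKO cells had none, and the highest had 24 and 25. The number of genes detected in 2000 UMIs was alike, with a median of 1136 in control cells and 1161 in DKO cells.

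Summed over the basophils, the mitosis list gave 3802 CPM in control cells and 2920 CPM in the DKO marrow, with 0 of 24 genes higher and 9 lower by 1.5-fold and a median of -0.48. Of all genes tested, 7.73% were lower. The value depended on which cells were kept. Without the 14 control and 12 DKO cells that had 3 or more UMIs of another class, the median was 0.077, and without the 4 cells lacking Cpa3, Ms4a2 and Fcer1a it was -0.71. In cells of 5000 to 20000 UMIs the list stood at 2727 and 1246 CPM, and in cells over 20000 at 5956 and 3962 CPM. The replication list had 1 gene higher and 3 lower by 1.5-fold of 25 with at least 20 CPM, with a median of -0.30. Mki67, 296 and 302 CPM (log2 0.027, -0.25 to 0.30), and Top2a, 388 and 456 CPM (log2 0.23, -0.00097 to 0.47), both marks of cycling cells, did not share the lower level.

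The cells at or over that mitosis limit were deeper, with a median of 11780 UMIs against 5042 in control cells and 28044 against 10932 in the DKO marrow. Genes other than cycle genes also differed between them and the rest in both libraries. The cells lacking Cpa3, Ms4a2 and Fcer1a were all at or over the limit, and values without them are not given here. Higher in the cycling cells were histone genes, which are made in S phase, such as Hist1h1b (1018 against 98.0 CPM in control cells and 1339 against 9.18 CPM in DKO cells), and Prtn3 (1166 against 169 CPM in control cells and 613 against 82.6 CPM in DKO cells). Lower were Ccl6 (313 against 1488 CPM in control cells and 54.3 against 509 CPM in DKO cells), Il18r1 (60.8 against 263 CPM in control cells and 33.9 against 308 CPM in DKO cells), Ccl4, Csf1 and Txnip, a growth-restraining gene (248 against 802 CPM in control cells and 147 against 661 CPM in DKO cells). Cd200r3 was at 556 against 1181 CPM in control cells and 355 against 895 CPM in DKO cells and Gata2 at 660.3 against 1270 CPM in control cells and 586 against 1120 CPM in DKO cells. Mcpt8, at 10700 against 8906 CPM in control cells and 11056 against 10208 CPM in DKO cells, and Fcer1a, at 1202 against 1190 CPM in control cells and 986 against 1152 CPM in DKO cells, differed little between the 2 sets.

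Among the genes with the lowest log2 ratio of those of at least 100 CPM, Hist1h2ap and Gm10076 were also lower by over 1.5-fold outside the basophils. Hist1h2ap, a replication-dependent histone gene, stood at 923 and 250.04 CPM (log2 -1.88, -2.14 to -1.64) in basophils and 945 and 189 CPM in the other barcodes. Gm10076, a gene model whose function is not described here, stood at 493 and 168 CPM (log2 -1.54, -1.87 to -1.24) and 471 and 169 CPM. Near-identical copies of histone genes can share reads, so the first value is uncertain. The genes Prg2, F13a1, Ly6c2 and Lyz2 were carried by few cells, with 55.6%, 62.5%, 51.5% and 48.3% of the control UMIs in 1 cell each. Prg2 is an eosinophil gene, and the other 3 were high in the monocyte barcodes. Ly6c2, at 1684 and 1435 CPM there, also stood at 1336 and 1708 CPM in the progenitor barcodes. Lyz2, at 7929 and 6961 CPM in the monocyte barcodes, also stood at 5658 and 5273 CPM in the neutrophil barcodes. Ccl6, also in this set, had 14.2% of its control UMIs in its highest cell.

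Most of the 8 genes with the highest ratio were likewise carried by single cells. In the DKO library, 1 cell held 92.9% of the UMIs of Ngp, 96.7% of Retnlg, 81.9% of Camp, 94.1% of S100a8 and 93.8% of S100a9, all neutrophil genes. Without the highest cell of each library, all 5 had log2 ratios below 0, from -1.61 for S100a9 to -0.55 for Retnlg. The B cell factors Ebf1 (32.4 and 633 CPM) and Bach2 (23.6 and 239 CPM) were found in 7 DKO cells each, with 58.1% and 36.7% in 1 cell. Without cells that had 3 or more UMIs of another class, Ebf1 was at -0.43 and Bach2 at -1.01. Without the 4 cells lacking Cpa3, Ms4a2 and Fcer1a they were at 6.08 and 5.09. Erg, an ETS factor of stem and progenitor cells, was spread over 30 of 78 control and 25 of 35 DKO cells, with 63.5 CPM in control cells and 191 CPM in DKO cells, a log2 ratio of 1.57 (95% counting interval 1.11 to 2.09), and 61.9 and 83.2 CPM in the other barcodes.

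Lists that bear on the 2 targeted genes were sparse in these cells. Of 30 interferon-response genes, 13 had at least 20 CPM, of which 1 was higher and 5 lower by 1.5-fold, with a median of -0.35. Without cycling cells that median was 0.14. Over all genes of at least 20 CPM, 12.7% were higher and 7.73% lower by 1.5-fold. Isg15 gave 13 UMIs in control cells and 0 in DKO cells. Its control level of 16.2 CPM was 3.56-fold a floor of 3 counts over the DKO group, 4.55 CPM. That ratio leaves out the counting error of the control, so it is not a bound, and it covers the sums over all cells only. The log2 ratio of Isg15 with 1 count added was -3.52 over all cells and -1.30 in cells of 5000 to 20000 UMIs alone. Ifitm3, a membrane protein against virus entry, stood at 174 and 78.8 CPM (log2 -1.13, -1.63 to -0.68), Ifi27l2a at 87.1 and 16.7 CPM and Psmb9, an immunoproteasome subunit, at 123 and 72.7 CPM (log2 -0.75, -1.29 to -0.25), and B2m, the light chain of MHC class I, at 798 and 627 CPM. The other barcodes had the same order for these 4, with 698 and 358 CPM, 343 and 104 CPM, 146 and 97.8 CPM and 806 and 728 CPM. Ifi27l2a stood at 1.65 without cycling cells and at 2.28 in cells of 5000 to 20000 UMIs. Irf1 was the higher gene, at 23.6 and 37.9 CPM (log2 0.66, -0.24 to 1.62). Of 10 genes of the cGAS-STING pathway, 7 had at least 20 CPM, of which Ddx41 itself was lower and Ifi203 higher. Ifi203 stood at -0.43 without cells with markers of another class. Tbk1, the pathway's kinase, was at 53.5 and 47.0 CPM, and Tmem173, which encodes STING, at 24.9 and 16.7 CPM.

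Of 20 p53 target genes, 8 had at least 20 CPM, of which 1, Trp53inp1, was higher and 0 lower, with a median of -0.028. Over all genes of at least 20 CPM, 12.7% were higher and 7.73% lower by 1.5-fold. Of 20 immediate early and stress genes, which cell handling can raise, 12 had at least 20 CPM, of which 0 were higher and 5 lower, with a median of -0.45. Jun stood at 116 and 45.5 CPM (log2 -1.32, -1.99 to -0.74), Ier2 at 229 and 97.0 CPM (log2 -1.22, -1.67 to -0.82) and Klf6 at 169 and 97.0 CPM, while Fos was at 21.2 and 28.8 CPM. In the control they were also lower in deeper cells, with 2832, 1935 and 1553 CPM for the summed list. In cells of 5000 to 20000 UMIs the libraries stood at 1935 and 1676 CPM. The log2 ratios of the 5 lower genes were then -1.17 for Jun, -0.89 for Nfkbia, -0.64 for Ier2, -0.009 for Klf6 and 0.12 for Jund. The part that handling or depth had in this was not tested.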

How the data were processed

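Femoral bone marrow cells of both genotypes were captured with the Chromium Single Cell 3' v3 kit. The authors deposited UMI counts per gene and barcode, with no normalization, made by Cell Ranger 7.1.0 according to the file headers. The submitters' processing notes name mm10, and the annotation and the treatment of intronic reads are not given in the sources used here. The control table lists every barcode and the DKO table called barcodes only, so the number of low barcodes cannot be compared between them.

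UMIs were summed over the basophils of a library and scaled to CPM (Python 3.11.15, numpy 2.4.6, scipy 1.17.1, pandas 2.3.3). With 1 library per genotype no test was run. A gene was called higher or lower past 1.5-fold at a mean of at least 100 CPM, or 20 CPM within lists. Scripts were tested on simulated data. No doublet caller was run, and markers of other classes were counted instead. Of 32285 gene identifiers, 32158 were found in GENCODE M21. Promoter bases are from RefSeq. A gene that the naming rule selects is not reported here.

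The basophils, their rule and the gene lists were chosen with earlier results of these data known. The genes named are the targeted genes, members of the role lists, the 8 genes with the highest and the 8 with the lowest ratio between libraries, the 15 leading genes over other barcodes and the 8 with the highest and lowest ratio in cycling cells. Mpo, Elane, Prtn3 and the single genes of the interferon, stress, p53 and cycle lists, the division by Ccl3 and Mpo and that by depth were chosen after their values were seen. The alternatives tried changed the protease threshold, the minimum depth, the scaling, the weight of each cell and the cells kept.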

Additional observations from a re-analysis of the deposited data

How the results depend on the processing

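Each library held few basophils, so depth and the choice of cells limit every value, and a gene carried by 1 cell follows that cell. No paired analysis was possible because each genotype had 1 library. Over all alternatives, 204 values that answer a comparison stayed within the limits set for a change and 36 moved. For single genes 255 stayed, 81 moved and 27 changed direction, and the causes of these changes were not tested beyond the cells that each setting leaves out. Scaling by the median ratio, or without hemoglobin, mitochondrial and ribosomal protein UMIs, shifted log2 values by 0.015 and 0.021.

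With a threshold of 20 UMIs, Ly6c2 stood at 0.015 and the median of the granule list at -0.16. With every cell weighing alike, 131 genes were lower. With a minimum of 20 CPM, 849 genes were higher and 517 lower, with 300 CPM 17 and 23, and with a fold of 2 at 100 CPM 15 and 18. With at least 2000 UMIs per barcode the control share was 0.870% and the DKO share 0.538%. Without cells with markers of another class (64 control and 23 DKO cells left), the control share was 0.553% and the DKO share 0.293%. The medians of the granule, mitosis and replication lists were then -0.14, 0.077 and -0.97. The ratios were -0.43 for Ebf1, -1.01 for Bach2, -0.69 for Ngp, -0.43 for Retnlg, -0.50 for Camp, -1.70 for S100a8 and -1.63 for S100a9. Without cycling cells (37 and 19 left), 271 genes were higher and 180 lower, the granule, IgE receptor, replication and ribosomal protein lists had medians of -0.13, -0.050, -0.85 and -0.11, and Prg2 stood at 4.46, F13a1 at 1.24, Ly6c2 at 0.65, Ngp at -1.26, Retnlg at -0.67, Camp at -0.67, S100a8 at -1.70 and S100a9 at -2.06.

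A further 3 alternatives, which left out cells by depth, by markers or by their UMIs of a gene, were chosen after seeing the data. In cells of 5000 to 20000 UMIs (39 and 20), 448 genes were higher and 247 lower, Cgas stood at -2.47, and the IgE receptor, cytokine receptor, cytokine, mitosis, replication and ribosomal protein lists had medians of -0.38, 0.78, 0.85, -1.24, -1.52 and -0.049. F13a1 was then at 0.062, Ccl6 at 0.59, Ngp at -1.30, Retnlg at -0.037, S100a8 at -1.14 and S100a9 at -1.36. Without the highest cell of each library, Ngp was at -0.67, Retnlg at -0.55, Camp at -0.73, S100a8 at -1.57 and S100a9 at -1.61. Without cells lacking Cpa3, Ms4a2 and Fcer1a (76 and 33 left), 134 genes were higher and 88 lower. Of the 54 list genes past 1.5-fold, 49 still were then and 0 changed direction. Without cells with markers of another class these numbers were 31 and 8. They were 37 and 12 without cycling cells and 35 and 10 in cells of 5000 to 20000 UMIs. The 54 genes were picked with all cells kept. Over all genes of at least 20 mean CPM, 1366 of 6684 (20.4%) were past 1.5-fold with all cells kept. The median of the interferon list was 0.14 without cycling cells. Cd63 was short of 1.5-fold when scaled without hemoglobin, mitochondrial and ribosomal protein UMIs (-0.57), with every cell weighing alike (-0.49) and without cycling cells (-0.46).

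The share of cycling control cells was 79.5% without reduction, 37.3% with 1000 UMIs, 75.7% with at least 1 mitosis UMI and 40.5% with at least 4. In the DKO cells it was 91.4% without reduction and 74.3% with at least 1 UMI. With 1000 UMIs a median of 668 control and 682 DKO genes were detected.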

Other observations

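Ribosomal protein genes differed little between the basophils of the libraries. Of 83 genes, 80 had at least 20 CPM, and 0 of these were higher or lower by 1.5-fold, with a median log2 ratio of 0.065 and a range of -0.24 to 0.57. The eosinophil list had 3 of 7 genes with at least 20 CPM, all of them lower in the DKO cells, with a median of -3.76 that rests on the few cells with Prg2. Megakaryocyte markers were spread thinly, with 31 UMIs over 26 control cells and 13 UMIs over 11 DKO cells and at most 3 in a cell. Stromal markers gave 11 UMIs in the control and 1 in the DKO cells.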
